A study of Homo sapiens with 9 samples.

Results

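The human olfactory receptor gene clusters are 9 stretches of the genome, together 10.1 Mb long, in which most olfactory receptor (OR) genes lie side by side. Their contacts were read from Hi-C maps of IMR90 cells, a human fetal lung fibroblast line, that were either growing or in RAS-induced senescence (RIS). The clusters are fixed intervals of the hg19 genome, their members are the bins that overlap them, and 255 bins of 40 kb do so, of 75918 bins on chromosomes 1 to 22 and X. Of these, 254 had a value in every library, as did 69621 bins of the whole genome. The intervals hold 256 of the 414 protein-coding OR genes of the GRCh37 annotation (61.8%), 165 OR pseudogenes and 75 other coding genes, and 174 of the 254 bins overlap a coding OR gene.

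OR genes code for membrane receptors that detect odorants in the sensory neurons of the nose, where each neuron expresses a single receptor gene from a single allele. In those neurons, OR clusters of different chromosomes gather into shared foci of silenced chromatin, from which the chosen gene is set apart. Fibroblasts are not olfactory cells, and OR clusters there are as a rule silent, rich in repressive histone marks and part of the B compartment, the share of the genome that is compact and poor in active genes. Hi-C cross-links chromatin and ligates DNA ends that lie close together, so the number of ligation products between 2 bins reports how often they are in contact.

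Each cluster is named here by its first coding OR gene. On chromosome 11, the OR52B4 cluster (4.3 to 8 Mb, ending at OR10A3) holds 69 coding OR genes, the OR4A16 cluster (55 to 56.6 Mb, ending at OR5G3) holds 48 and the OR6X1 cluster (123.6 to 124.5 Mb, ending at OR8A1) holds 24. On chromosome 1, the OR2B11 cluster (247.6 to 248.9 Mb, ending at OR14I1) holds 45 and the OR10T2 cluster (158.3 to 159 Mb, ending at OR6N2) holds 13. The others are the OR4N2 cluster of chromosome 14 (20.2 to 20.7 Mb, ending at OR11H7, 17 genes), the OR2W1 cluster of chromosome 6 (29 to 29.6 Mb, ending at OR2H2, 15 genes), the OR1J1 cluster of chromosome 9 (125.2 to 125.6 Mb, ending at OR1K1, 14 genes) and the OR1D2 cluster of chromosome 17 (3 to 3.4 Mb, ending at OR1E2, 11 genes). Several clusters also hold genes of other families: the beta-globin and TRIM genes lie inside the OR52B4 cluster, and CD1 and interferon-inducible HIN genes inside or beside the OR10T2 cluster.

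What the members share beyond position is a coding sequence. OR proteins carry a conserved stretch at the end of the third membrane-spanning segment, and 1 DNA spelling of it, GANCGNTANGTNGCNATNTG on either strand, was searched for in the GRCh37 reference, where N is any base. It takes for each amino acid the first bases of its largest group of codons and leaves the last base of each codon free. It was found in 84 of the 256 coding OR genes of the clusters (32.8%), and 109 of its 201 matches in the genome (54.2%) lay in the clusters. By bins, 83 of 254 cluster bins (32.7%) held it against 152 of 69621 bins of the genome (0.218%) and 69 of 69367 bins outside the clusters (0.0995%). Within the clusters, 79 of 174 bins with a coding OR gene held it (45.4%), as did 4 of 80 bins without one (5%). A match describes the letters only, and receptors that spell the stretch otherwise were not counted. The first matching coding OR gene is printed below for 7 clusters, read on the strand of the gene from its 5′ side with the motif in capitals, to show what repeats along and between these regions; no coding OR gene of the OR2W1 cluster held a match.
OR52K2 of the OR52B4 cluster, chr11:4470931-4470960, plus strand: cctttGACCGCTATGTGGCTATCTGcaagc
OR4C15 of the OR4A16 cluster, chr11:55322297-55322326, plus strand: cctatGATCGTTATGTGGCCATTTGcaagc
OR8D4 of the OR6X1 cluster, chr11:123777494-123777523, plus strand: cctgcGATCGCTACGTGGCCATCTGcagcc
OR2B11 of the OR2B11 cluster, chr1:247614888-247614917, minus strand: ccctgGACCGCTACGTGGCCATCTGcaagc
OR10T2 of the OR10T2 cluster, chr1:158368869-158368898, minus strand: gatatGATCGCTATGTAGCAATTTGtcacc
OR4K15 of the OR4N2 cluster, chr14:20444105-20444134, plus strand: cctatGACCGTTATGTTGCTATATGcaaac
OR1J2 of the OR1J1 cluster, chr9:125273436-125273465, plus strand: catatGACCGATATGTTGCCATATGtcacc

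All libraries came from IMR90 cells at passage 20 to 25 that carried ER:HRAS G12V, an oncogenic HRAS fused to the oestrogen receptor and switched on by 4-hydroxytamoxifen (4OHT). The 3 growing Hi-C libraries had no 4OHT, and the 2 RIS libraries came from cells given 100 nM 4OHT for 6 days. Growing replicate 3 also carried an added MSCV vector. A further 2 growing and 2 RIS libraries were capture Hi-C, in which contacts of chosen regions were enriched and binned at 10 kb. The study calls its replicates biological, but the labels do not say whether they are separate cultures, so p-values measure only the spread between these libraries, which may be in part technical, and the fibroblast label could not be checked with markers because no RNA was read here.

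Hi-C depth, in recovered contacts, was 154318992, 175410468 and 180775315 for the growing replicates 1, 2 and 3 (the order kept for all values below) against 109967509 and 150689993 for RIS replicates 1 and 2. Coverage differed between clusters: the mean coverage of a cluster, relative to the library's median bin, ran from 0.654 to 1.35 in growing and from 0.660 to 1.38 in RIS cells. It was lowest in the OR1D2 and OR2B11 clusters (0.654 and 0.655 in growing, 0.684 and 0.660 in RIS cells), and 10 of the 33 bins of the OR2B11 cluster had less than 0.5 of the median in RIS replicate 1. GC content was 36.3% to 40.8%. One difference between the groups ran through the whole genome: contacts between chromosomes (trans) were 7.04% to 7.56% of all contacts in the growing libraries and 9.60% to 9.81% in the RIS libraries. Its part in the results below was not tested.

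Contacts inside each cluster were the first question. They were expressed as observed over expected (O/E), the mean contact over all pairs of different bins in a cluster divided by the mean for pairs equally far apart across the genome, and differences are on the log2 scale, RIS minus growing. Contact inside the clusters was above that of the genome in 8 of 9 clusters in both states. In RIS cells it was higher in the OR1D2, OR52B4 and OR6X1 clusters, by 0.37, 0.30 and 0.21, and lower in the OR4A16 cluster, by 0.12. The OR4A16 difference was ordinary among genome windows of its length, of which 19.4% had a lower value. The OR2B11 cluster was higher by as much, 0.12. With 3 libraries against 2, the exact permutation test over libraries has 10 regroupings and cannot give a two-sided p below 0.1, so no value for a single cluster can pass a threshold of 0.05.

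In the OR1D2 cluster, a short run of receptor genes on chromosome 17, O/E was 1.41, 1.44 and 1.38 in growing libraries against 1.82 and 1.81 in RIS libraries. Both RIS libraries lay above all growing libraries (log2 O/E 0.49 ± 0.03, SD, n = 3, against 0.86 ± 0.01, n = 2; exact permutation p = 0.1). Of 6887 adjacent windows of the same length across the genome, 33.8% were also higher in both RIS libraries than in every growing library, and 99.9% had a smaller difference than the OR1D2 cluster.

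In the OR52B4 cluster, the longest of the 9, O/E was 1.16, 1.17 and 1.15 in growing against 1.45 and 1.41 in RIS libraries. The groups did not overlap (0.21 ± 0.01, SD, n = 3, against 0.51 ± 0.03, n = 2; exact permutation p = 0.1). Among 726 windows of this length, 39.4% were likewise higher in both RIS libraries, and 99.7% had a smaller difference. Contacts of OR gene bins with the cluster's other bins were also higher in both RIS libraries (O/E 1.13 growing, 1.42 RIS, log2 difference 0.33), as were contacts among bins without a receptor gene (1.04 and 1.22, difference 0.23). These parts of the cluster have no genome share to set beside them.

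The OR6X1 cluster, towards the other end of chromosome 11, gave 1.21, 1.22 and 1.16 in growing against 1.38 and 1.40 in RIS libraries. Both RIS values exceeded the growing ones (difference 0.21, exact permutation p = 0.1), as in 39.4% of 2983 windows, of which 97.8% had a smaller difference. The OR2B11 cluster gave 1.59, 1.53 and 1.53 against 1.63 and 1.74 (difference 0.12; 41.5% of 2082 windows were higher in both RIS libraries and 85.7% had a smaller difference). In the OR1J1 cluster, which had the highest contact inside it of all 9, the values were 1.91, 1.92 and 1.88 against 1.98 and 2.00. That difference of 0.07 was ordinary among 6887 windows, of which 71.5% lay below it and 33.8% were higher in both RIS libraries.

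The OR4A16 cluster went the other way. Its O/E was 1.32, 1.27 and 1.30 in growing against 1.13 and 1.25 in RIS libraries, so both RIS libraries were the lowest, although they differed from each other by more than the growing libraries did (log2 SD 0.11 against 0.03). The difference was -0.12 (exact permutation p = 0.1), 33% of 1719 windows were lower in both RIS libraries, and 19.4% of windows had a smaller value. In the OR4N2 cluster, the only cluster below 1, O/E was 0.841, 0.813 and 0.863 against 0.809 and 0.775. The RIS values were the lowest but lay close to the growing ones (difference -0.08, exact permutation p = 0.2), and 35.2% of 5301 windows were lower in both RIS libraries.

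The OR10T2 cluster changed little inside (1.28, 1.28 and 1.32 against 1.32 and 1.35, difference 0.05, exact permutation p = 0.2; 37.2% of 3823 windows were higher in both RIS libraries). In the OR2W1 cluster the groups overlapped (1.13, 1.18 and 1.23 against 1.20 and 1.30, difference 0.08). Over the 9 clusters, 6 were higher in both RIS libraries, 2 were lower and 1 overlapped. The OR10T2 cluster counted as higher by a near tie, with 1.3179 in RIS replicate 1 against 1.3176 in growing replicate 3. For each cluster length, 33.8% to 41.5% of genome windows were higher and 32.4% to 35.2% lower in the same sense, so such a split between libraries was common everywhere. The size of the difference set the OR1D2, OR52B4 and OR6X1 clusters apart, each above at least 97.8% of the windows of its length. The mean log2 O/E over clusters was 0.36, 0.36 and 0.36 in growing against 0.45 and 0.49 in RIS libraries (difference 0.11, exact permutation p = 0.1).

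**Figure D1:**
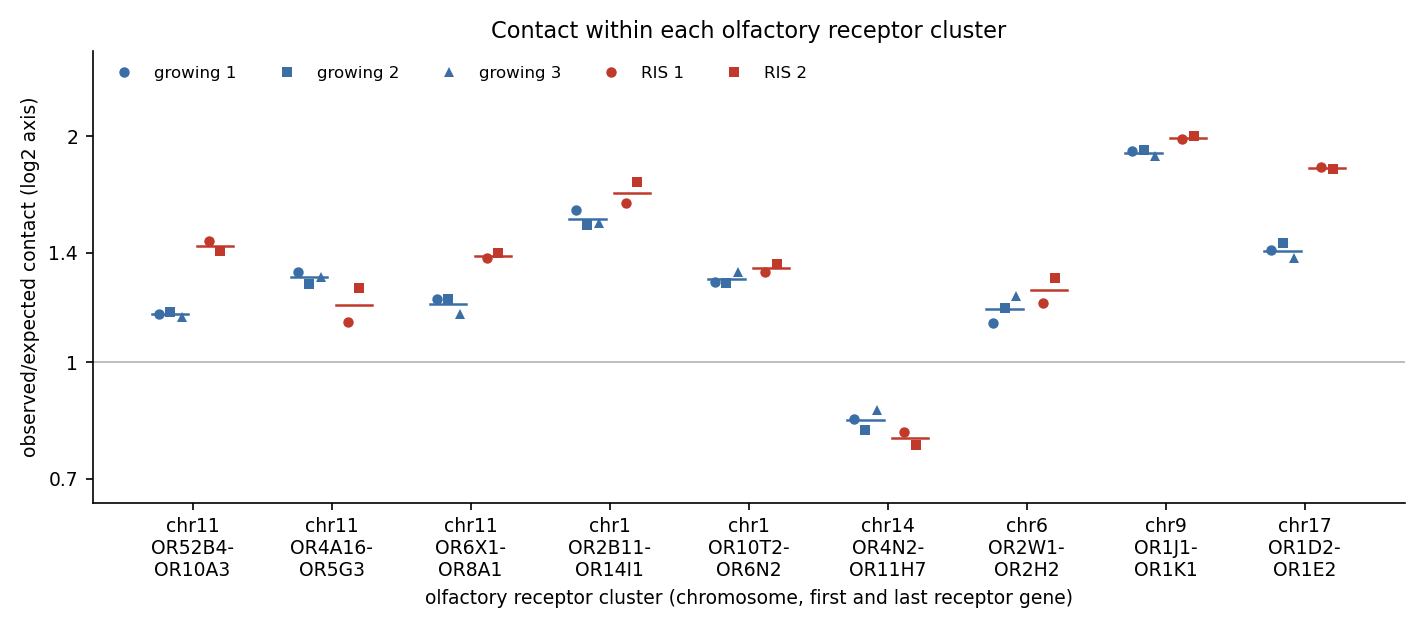
Contact inside each OR cluster in every Hi-C library: the vertical axis is observed over expected contact on a log2 scale, each point is 1 library (3 growing, 2 RIS) and short lines are group means. Both RIS points lie well above the growing points in the OR1D2–OR1E2, OR52B4–OR10A3 and OR6X1–OR8A1 clusters and below them in the OR4A16–OR5G3 cluster.

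The OR52B4 cluster is not one unbroken array, so its contacts were described by segment. The segments were set by gene content after the data had been seen. The first receptor run (OR52B4 to OR52W1, 47 bins, 57 coding OR genes) is followed by 13 bins with 18 coding genes and no receptor, a gene-dense part that includes ILK, a kinase of cell adhesion, and TAF10, a subunit of the general transcription machinery. Then come the second receptor run (OR2AG2 to OR2D3, 5 bins, 8 genes), a stretch of 21 bins with 9 other coding genes and 3 OR pseudogenes, and the third receptor run (OR5P2 to OR10A3, 4 bins, 4 genes). The compartment score averaged over libraries, positive for the active A compartment, was -0.61 in the first run, 0.58 in the gene-dense part, -0.62 in the second run, -0.73 in the stretch of 21 bins and -0.09 in the third run.

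The 2 largest differences between the states joined receptor runs to each other. Between the second and the third runs, O/E was 1.30, 1.16 and 1.23 in growing against 2.19 and 1.97 in RIS libraries. Every RIS value was above every growing value (log2 0.30 ± 0.08, SD, n = 3, against 1.05 ± 0.10, n = 2; difference 0.76; exact permutation p = 0.1). Between the first and second runs, which flank the gene-dense part, O/E was 1.05, 1.07 and 1.01 against 1.60 and 1.47 (difference 0.55), and between the first and the third runs 1.44, 1.24 and 1.28 against 1.92 and 1.80 (difference 0.50). In both cases the groups did not overlap (exact permutation p = 0.1 for each). No genome share was computed for contacts between segments. Among whole windows of the cluster's length, 39.4% were higher inside in both RIS libraries. A split between libraries alone therefore says nothing particular about receptor runs.

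The stretch of 21 bins, which holds no coding receptor gene but scores as B, was also in more contact with the first run (1.34, 1.33 and 1.26 against 1.79 and 1.71, difference 0.42) and with the third run (0.789, 0.733 and 0.771 against 1.13 and 1.03, difference 0.50). With the second run, next to it, the groups overlapped (1.86, 1.76 and 1.87 against 1.79 and 1.73, difference -0.05). Inside the first run the difference was smaller (1.26, 1.30 and 1.29 against 1.50 and 1.52; 0.23). The gene-dense part showed no such gain: contact inside it was 1.19, 1.19 and 1.19 against 1.20 and 1.17, with overlapping groups, and its contact with the second run was 0.461, 0.459 and 0.509 against 0.404 and 0.449 (difference -0.16, exact permutation p = 0.1). Its contact with the first run was nevertheless higher in both RIS libraries (0.719, 0.795 and 0.810 against 0.921 and 0.859, difference 0.20), while still below the expected level of 1. Contacts inside the second run and inside the third run overlapped between the groups.

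**Figure D2:**
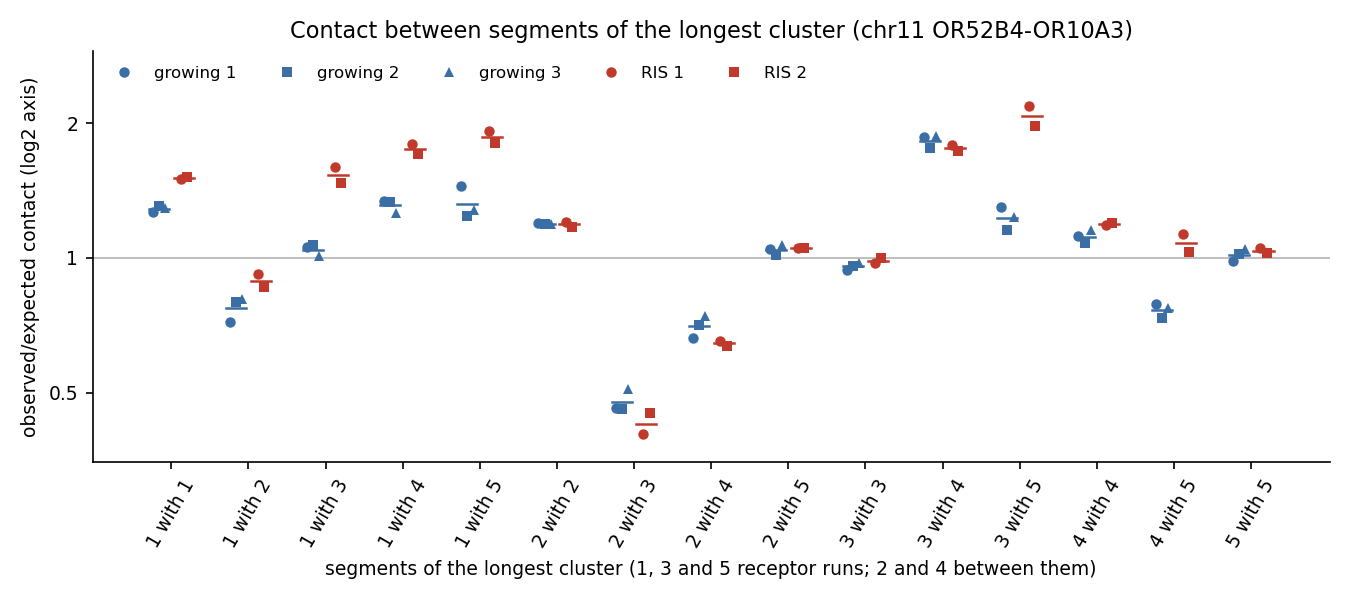
Contacts within and between the 5 segments of the OR52B4–OR10A3 cluster on chromosome 11 in every Hi-C library, as observed over expected contact on a log2 axis; each point is 1 library, short lines are group means, and segments 1, 3 and 5 are the receptor runs, 2 the gene-dense part and 4 the stretch of 21 bins. The 2 largest differences join receptor runs to each other (0.76 between segments 3 and 5), segment 4, which has no coding receptor gene, was also higher with segments 1 and 5 (0.42 and 0.50), and contact inside segment 2 was 1.19 in both states.

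Contacts of each cluster with the 1 Mb of chromatin on either side gave a more divided result. They were higher in RIS cells for the OR10T2 cluster and lower for the OR4A16, OR2B11, OR1D2 and OR4N2 clusters, and overlapped in the other 4. For the OR10T2 cluster, whose neighbours include the CD1 genes for lipid antigen presentation and the HIN genes for sensing of foreign DNA, O/E with the flanks was 1.20, 1.23 and 1.17 in growing against 1.56 and 1.51 in RIS libraries. The groups did not overlap (0.26 ± 0.04, SD, n = 3, against 0.62 ± 0.03, n = 2; difference 0.36; exact permutation p = 0.1), 40.3% of 3806 windows of this length were also higher in both RIS libraries, and 99.8% had a smaller difference. Both sides took part, that of CD1A, CD1C and CD1D (1.35, 1.39 and 1.32 against 1.84 and 1.75, difference 0.41) and that of AIM2 (1.04, 1.08 and 1.01 against 1.28 and 1.28, difference 0.30). Contact inside each of these flanks was higher too, by 0.25 and 0.23, whereas contact inside the cluster itself differed by 0.05.

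The OR4A16 cluster contacted its flanks less in RIS cells (0.790, 0.799 and 0.833 against 0.580 and 0.644). Both RIS libraries were below all growing ones (-0.31 ± 0.04, SD, n = 3, against -0.71 ± 0.11, n = 2; difference -0.40; exact permutation p = 0.1), as in 36.5% of 1714 windows (38% were higher), of which 2.68% had a lower value. The difference was present on the left, towards the centromere (1.61, 1.57 and 1.52 against 1.25 and 1.37, difference -0.26), and on the right (0.593, 0.613 and 0.669 against 0.419 and 0.469, difference -0.49). For the OR2B11 cluster the values were 0.996, 1.04 and 1.05 against 0.788 and 0.835 (difference -0.34; 35.6% of 2076 windows were lower and 38.2% higher in both RIS libraries, and 3.56% had a lower value). Here the loss was on the left (0.911, 0.960 and 0.980 against 0.656 and 0.720, difference -0.47), and the right side, next to the end of the chromosome, overlapped (1.42, 1.41 and 1.39 against 1.45 and 1.41).

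In the OR1D2 cluster, contact with the flanks was low in both states and lowest in RIS cells (0.400, 0.460 and 0.509 against 0.349 and 0.364, difference -0.35, exact permutation p = 0.2, 2.58% of 6862 windows with a lower value, 33.2% lower and 39.1% higher in both RIS libraries). This cluster therefore had more contact inside and less outside in RIS cells. The OR4N2 cluster gave 0.953, 0.888 and 0.981 against 0.837 and 0.815 (difference -0.19, exact permutation p = 0.2). Of 5277 windows, 33.3% were lower and 39.9% higher in both RIS libraries, and 14.2% had a lower value, so its difference was less extreme. Its right side, which carries TTC5 and the DNA repair gene PARP2, differed most (0.487, 0.468 and 0.563 against 0.367 and 0.385, difference -0.42).

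The OR2W1 cluster overlapped with both flanks counted at once (0.728, 0.715 and 0.738 against 0.737 and 0.760; 40.1% of 4558 windows were higher and 33.4% lower in both RIS libraries), and this hid opposite sides. Its left flank was contacted more in RIS cells (1.14, 1.09 and 1.09 against 1.27 and 1.33, difference 0.23). Its right flank, which carries MOG, for a myelin protein, ZFP57, for an imprinting factor, and the HLA region beyond, was contacted less (0.317, 0.341 and 0.388 against 0.201 and 0.191, difference -0.83; -1.53 ± 0.15, SD, n = 3, against -2.35 ± 0.05, n = 2). Neither side overlapped between the groups (exact permutation p = 0.1 for each). The OR52B4 cluster, too, had a left side that was lower in RIS cells (0.931, 0.959 and 0.934 against 0.860 and 0.826, difference -0.16) and a right side that was higher (0.754, 0.748 and 0.781 against 0.882 and 0.846, difference 0.18); with flanks of 400 kb the left side was higher instead (0.15). The OR6X1 and OR1J1 clusters overlapped with both flanks counted at once, where 39.6% and 39.1% of windows of their lengths were higher in both RIS libraries. Their sides, too, differed in direction without overlap, by small amounts. For the OR6X1 cluster the left was lower (0.448, 0.456 and 0.456 against 0.441 and 0.425, difference -0.07, exact permutation p = 0.1) and the right higher (0.662, 0.624 and 0.596 against 0.698 and 0.662, difference 0.12, exact permutation p = 0.2), although on recovered contacts the left difference was 0.0052. The right side was nearly tied, with 0.6625 in RIS replicate 2 against 0.6622 in growing replicate 1. For the OR1J1 cluster the left was higher (0.777, 0.803 and 0.807 against 0.865 and 0.827, difference 0.09, exact permutation p = 0.1) and the right lower (0.685, 0.651 and 0.635 against 0.633 and 0.621, difference -0.07, exact permutation p = 0.2).

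Over the 9 clusters, contact with both flanks was higher in both RIS libraries in 1, lower in 4 and overlapping in 4, where 32.3% to 40.3% of windows were higher and 33.2% to 38.8% lower. For a single side no such share was computed, so how common its split is remains unknown. The mean log2 O/E was -0.39, -0.37 and -0.34 in growing against -0.46 and -0.45 in RIS libraries (difference -0.09, exact permutation p = 0.1).

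**Figure D3:**
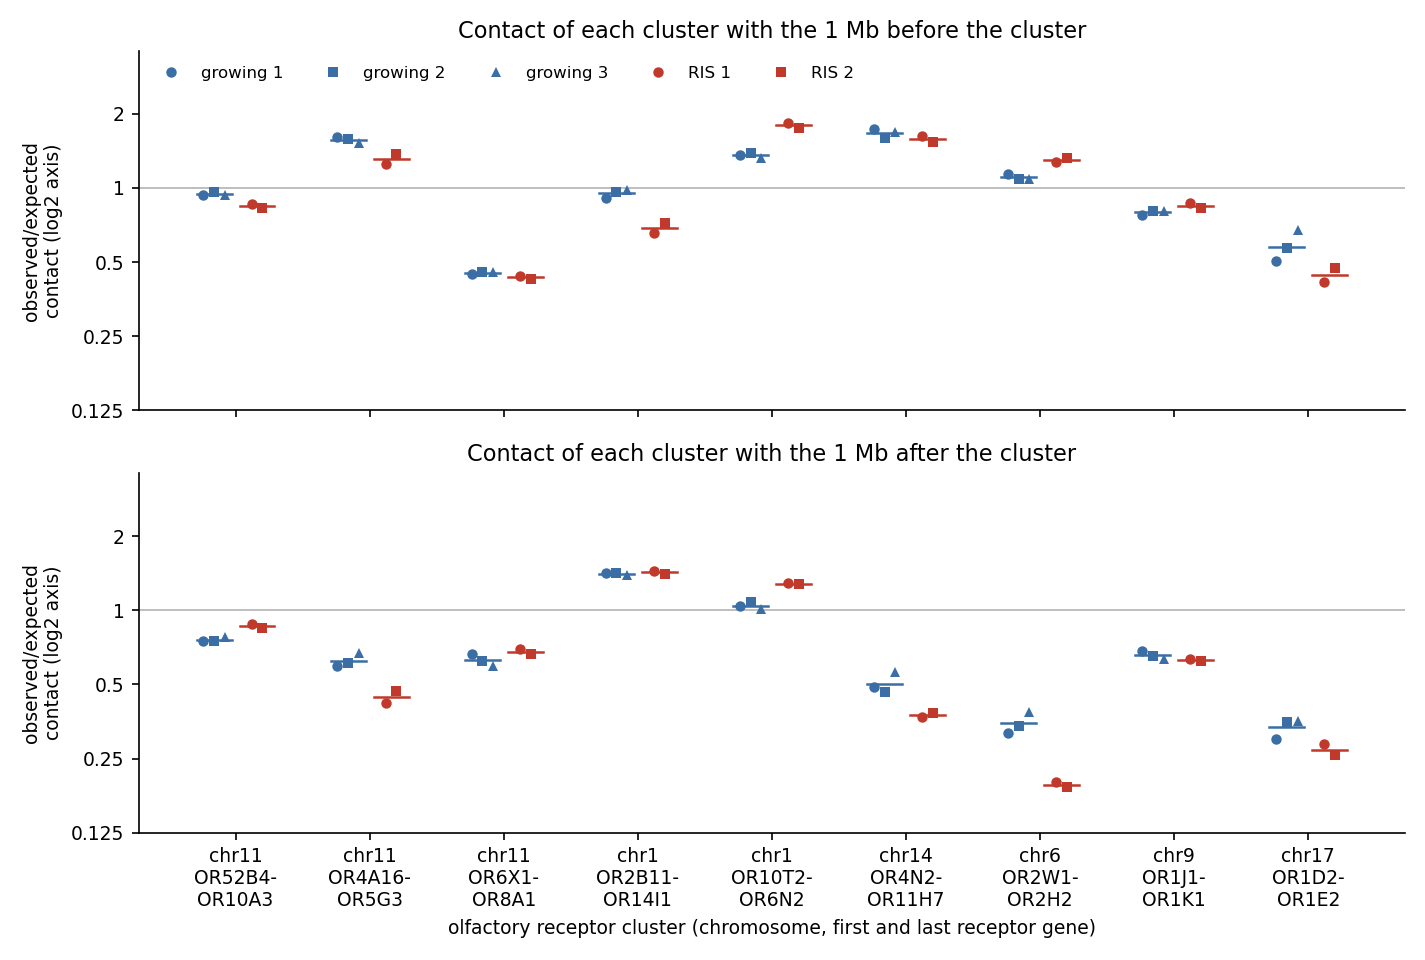
Contact of each OR cluster with the 1 Mb before it (upper panel, its left) and after it (lower panel, its right) in every Hi-C library, as observed over expected contact on a log2 axis, with 1 point per library and lines for group means. The RIS points lie above the growing points on both sides of the OR10T2–OR6N2 cluster, below them on both sides of the OR4A16–OR5G3 cluster, and above them on the left but below them on the right of the OR2W1–OR2H2 cluster.

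Clusters of 1 chromosome contact each other over long distances, and all 4 such pairs had O/E above 1 in every library. In RIS cells the O/E of the pair on chromosome 1 was higher, that of the 3 pairs on chromosome 11 differed in direction, and the mean over the 4 pairs is therefore a poor description. Without division by the expected contact, the mean balanced value over bins of 200 kb was higher in both RIS libraries for all 4 pairs. No genome share was computed for values not so divided, so this shows nothing particular to the clusters. For the OR2B11 and OR10T2 clusters, at opposite parts of the long arm of chromosome 1, O/E was 7.17, 7.47 and 5.99 in growing against 11.6 and 12.7 in RIS libraries. Both RIS values were far above the growing ones (2.78 ± 0.17, SD, n = 3, against 3.60 ± 0.09, n = 2; log2 difference 0.82, 1.77-fold; exact permutation p = 0.1), and the contacts behind them numbered 109, 136 and 129 in growing against 222 and 325 in RIS libraries, although the growing libraries were on the whole deeper. Of 115842 pairs of 1 Mb tiles at least 40 Mb apart on 1 chromosome, 18.2% were higher in both RIS libraries than in every growing library and 34.4% were lower.

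On chromosome 11, the OR52B4 and OR4A16 clusters, on either side of the centromere, gave 1.72, 1.69 and 1.54 in growing against 2.08 and 2.25 in RIS libraries, from 478, 508 and 485 against 562 and 725 contacts. The RIS libraries were higher (difference 0.39, exact permutation p = 0.1). The OR4A16 and OR6X1 clusters, on the same arm, gave 3.24, 3.35 and 3.84 against 2.49 and 2.63, from 174, 191 and 219 against 151 and 212 contacts. Here both RIS libraries were lower in O/E (difference -0.44, exact permutation p = 0.1). The pair's mean balanced value over bins of 200 kb, not divided by the expected contact, was higher instead. It was 3.38, 3.31 and 3.63 in growing against 4.26 and 3.99 in RIS libraries. How many other pairs at such a distance were higher too was not computed. The outermost pair, the OR52B4 and OR6X1 clusters, overlapped (4.06, 3.98 and 3.55 against 3.59 and 3.18, difference -0.19), and its difference was 0.25 when the expected contact was taken from chromosome 11 alone. The mean difference over the 4 pairs was 0.15 (exact permutation p = 0.1) and the median of the 4 differences 0.10, whereas the median over pairs taken within each library differed by -0.31, with the opposite sign.

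**Figure D4:**
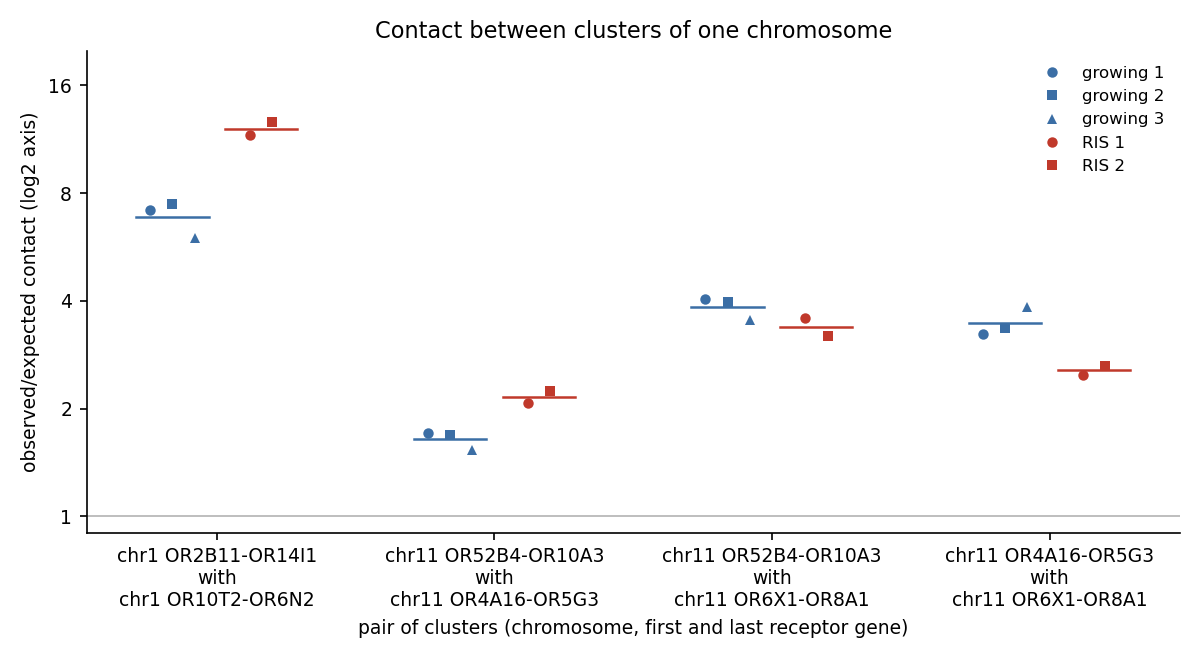
Contact between OR clusters of the same chromosome in every Hi-C library, as observed over expected contact on a log2 axis for the 4 pairs of clusters, with 1 point per library and lines for group means. As a ratio, the chromosome 1 pair stood at 6.85 in growing and 12.1 in RIS cells, and the pair of the OR4A16–OR5G3 and OR6X1–OR8A1 clusters lies lower in RIS cells. The mean balanced value of this last pair, not divided by the expected contact, was higher in both RIS libraries, with no genome share to set beside it.

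These long-range contacts were then resolved into pairs of bins 200 kb long, over 2 Mb from each other, and tested with limma across 724637 pairs of the genome, of which 4.72% were called higher in RIS cells and 3.84% lower at an adjusted p under 0.05. Of 351 pairs with both bins mostly in OR clusters, 57 reached the minimum mean value of 10 over the libraries and were tested. Of these, 15 rose and none fell. All 36 pairs inside the OR52B4 cluster reached the minimum in growing cells too. At an unadjusted p under 0.05, a limit whose genome share was not computed, 14 were higher and 1 lower. By adjusted p, 5 of them rose. The other 10 calls were 9 of 13 tested pairs, of 28 in all, that join the OR10T2 and OR2B11 clusters and 1 of 7, of 152 in all, that join the OR52B4 and OR4A16 clusters. The growing mean of each of these 10 was below the minimum, so they were tested because of their RIS values, and their number supports nothing. Over all 28 pairs that join the OR10T2 and OR2B11 clusters, tested or not, the mean balanced value was 4.56, 4.65 and 3.72 in growing against 12.2 and 12 in RIS libraries. For this value, too, no genome share was computed. Weighted on the recovered contacts by limma's voom method, 17 pairs rose and 1 fell, where 8.82% and 4.46% of the genome's pairs did so; 14 of the 17 were again below the minimum in growing cells and support nothing, and the other 3 and the fall lay among the 36 pairs inside the OR52B4 cluster.

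The called pair with the largest difference, one of those tested because of their RIS values, joined the bin of CD1B, CD1E, OR10T2 and OR10K2 to that of NLRP3, for an inflammasome sensor, OR2B11 and OR2C3, 89400 kb away. It held 5, 1 and 4 contacts in growing against 16 and 15 in RIS libraries, a log2 difference of 3.27. Each RIS library had far more contacts than any growing library, but the numbers are small.

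These calls depended on the number of libraries. Without growing replicate 1, 2 or 3, limma called 11, 7 and 7 of the 57 pairs, and without RIS replicate 1 or 2, which leaves a single RIS library assumed to vary like the others, it called 3 and 2. All of these were higher. The 57 pairs include those tested because of their RIS values, so neither these counts nor the voom counts that follow support a direction. Without the same libraries in that order, voom called 20, 17, 16, 16 and 7. The 1 pair that fell by voom joined the bin of OR51L1 to OR52A1, in the first run of the OR52B4 cluster, to that of SYT9, OLFML1 and PPFIBP2 in the stretch of 21 bins, with 91, 81 and 111 contacts in growing against 41 and 47 in RIS libraries (difference -0.78).

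Contacts between clusters of different chromosomes were few. The 32 trans pairs of clusters held 213, 246 and 228 contacts in growing against 231 and 299 in RIS libraries in all, with 0 to 44 in any pair and library, and 24 pairs had a contact in every library. Values were divided by the mean of the chromosome pair, which takes out the genome-wide difference in trans contacts between libraries. The mean over the 24 pairs was above 1 throughout, at log2 1.23, 1.31 and 1.17 in growing against 1.77 and 1.39 in RIS libraries. The other 8 pairs, with a library at 0, were left out, so this level describes the 24 alone and not all 32. Both RIS libraries were higher but differed widely from each other (1.24 ± 0.07, SD, n = 3, against 1.58 ± 0.27, n = 2; difference 0.34; exact permutation p = 0.1). Of the 24 pairs, 5 were higher in both RIS libraries, 2 lower and 17 overlapped, against 17.6% higher and 14.5% lower among 639722 trans pairs of 1 Mb tiles. The tile pairs were not divided by the mean of their chromosome pair and were kept by a minimum mean value of 5. The shares are therefore only a rough guide.

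The trans pair with most contacts joined the OR4A16 cluster to the OR4N2 cluster of chromosome 14. It stood at 8.98, 8.33 and 11.1 times the mean of its chromosome pair in growing against 12.4 and 9.21 times in RIS libraries, from 27, 41 and 36 against 29 and 44 contacts. The groups overlapped. The largest gain joined the OR2B11 and OR4N2 clusters (0.255, 0.697 and 0.729 against 6.82 and 4.14, from 1, 1 and 2 against 9 and 11 contacts; log2 difference 3.39). The OR6X1 and OR2W1 clusters were also higher in both RIS libraries (1.19, 1.58 and 2.06 against 5.22 and 7.09, from 2, 4 and 4 against 7 and 18 contacts).

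The OR4N2 and OR2W1 clusters were lower (9.11, 5.26 and 7.69 against 4.60 and 1.14, from 9, 10 and 7 against 5 and 3 contacts). These 3 pairs had groups that did not overlap (exact permutation p = 0.1 for each), from very few contacts. The OR1J1 cluster, the 1 cluster in the A compartment, had at least 1 library at 0 in 6 of its 8 trans pairs. Across all trans tile pairs, limma called 0% of pairs higher and 0.000156% lower. It called 0 of 25 pairs with both tiles in OR clusters, and voom also called 0, where voom called 2.23% higher and 0.185% lower genome-wide. At an unadjusted p under 0.05, limma had 1 higher and voom 2 higher and 1 lower, and no genome share was computed there. The higher pairs joined the OR2B11 and OR4N2 clusters and the OR6X1 and OR2W1 clusters. Their growing values (0, 4.60 and 0, and 1.29, 3.40 and 4.73) were all below the minimum of 5. They were tested because of their RIS values, and the lower pair because of its growing values, so these counts support nothing. Neither test called a change in a single trans pair of receptor tiles.

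The compartment score asks with which part of the nucleus a region keeps company. It is the first component of the contact pattern of a chromosome in bins of 120 kb, scaled to unit variance, with positive values for the gene-rich A side. The clusters lay almost wholly in B in both states: 11 of 91 bins were above 0 in growing and 13 in RIS cells, and these included all 4 bins of the OR1J1 cluster. In RIS cells 6 bins rose and 19 fell by limma at an adjusted p under 0.05, that is, moved further from A. Of all 23543 bins, 18.4% rose and 19% fell, and of the 11386 bins below 0, 23.3% rose and 16.6% fell.

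The falls lay in 5 of the 9 clusters. All 5 bins of the OR4N2 cluster fell, as did 6 of 14 in the OR4A16 cluster, 3 of 6 in the OR10T2 cluster, 4 of 32 in the OR52B4 cluster, where 3 rose, and 1 of 12 in the OR2B11 cluster. The mean score of the OR4N2 cluster was -1.10, -1.10 and -1.11 in growing against -1.34 and -1.31 in RIS libraries, and that of the OR10T2 cluster -1.45, -1.49 and -1.42 against -1.68 and -1.70. In both, the RIS libraries were the lowest, without overlap (exact permutation p = 0.1 for each). How often a mean score splits this way elsewhere in the genome was not computed. The OR2W1 cluster moved towards A, from -1.02, -1.01 and -0.90 to -0.72 and -0.71, and 2 of its 6 bins rose. The OR1D2 cluster, at -1.56, -1.48 and -1.44 against -1.35 and -1.53, overlapped, and none of its 4 bins was called.

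The bin with the largest rise held OR2H2, the last receptor gene of the OR2W1 cluster, with UBD, for a ubiquitin-like protein, and GABBR1, for a subunit of the GABA-B receptor. Its score was -0.35, -0.16 and -0.12 in growing against 0.30 and 0.29 in RIS libraries, and so crossed from B to A (difference 0.51, SE 0.08, limma adjusted p = 0.00453). The next bin inward, with OR11A1 to OR2H1, rose by 0.44 but stayed in B. MOG reaches from the bin of OR2H2 and GABBR1 into the next one outward, which holds ZFP57 and rose by 0.70, and on chromosome 11 the bin of SCN3B, for a sodium channel subunit just outside the OR6X1 cluster, rose by 0.73.

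The bin with the largest fall, inside the OR52B4 cluster, held OR51B4, OR51B5 and part of the annotated spans of the fetal and embryonic globin genes HBG2 and HBE1. Its score was 0.59, 0.74 and 0.99 in growing against -0.01 and 0.17 in RIS libraries, so that all growing values exceeded both RIS values (difference -0.69, SE 0.12, limma adjusted p = 0.00608). The adjacent bin, with HBB and HBD, the adult globin genes, also held HBG1 and part of HBG2, and fell by 0.31. These bins thus do not separate adult from fetal globin genes. The counts were fragile: limma called 20, 14 and 29 of the 91 bins without growing replicate 1, 2 or 3, and 1 and 3 without RIS replicate 1 or 2. Centring each library on its median over all bins, an alternative chosen after seeing the data, turned 6 higher and 19 lower into 2 higher and 58 lower, where 8.16% of all bins were then called higher and 55.2% lower.

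Of 18 first and last receptor genes of the clusters, 2 lay in bins that rose (OR8A1 and OR2H2) and 4 in bins that fell. Of 42 listed genes of other families in or beside the clusters, 7 lay in a bin that rose and 15 in a bin that fell, where 18.4% of all bins rose and 19% fell. Neighbouring genes share bins, so these are not independent counts: HBB, HBD and HBG1 lie in 1 bin, as do UBD and GABBR1. All 5 beta-globin genes overlapped a bin that fell, as did CD1B and CD1E among the 5 CD1 genes, MNDA among the 4 HIN genes and TRIM5 among the 6 TRIM genes, while all 4 neighbours of the OR2W1 cluster (GABBR1, UBD, MOG and ZFP57) were in bins that rose. TRIM5 is annotated over 3 bins, and the bin it shares with TRIM22 and TRIM34 was not called. In the gene-dense part of the OR52B4 cluster, ILK, TPP1, DCHS1 and TAF10, which share 1 bin, fell from 1.14, 1.07 and 1.09 to 0.85 and 0.92, within A, and the bin of CCKBR rose from 0.01, 0.10 and 0.02 to 0.33 and 0.41.

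Insulation measures how much contact passes across a bin within a window of 520 kb: it is low at borders between domains and high inside a domain that is well connected. In RIS cells it rose in 50 and fell in 76 of 246 tested cluster bins by limma at an adjusted p under 0.05. Of all 67049 bins, 26% rose and 27.8% fell, and of 32986 bins with a compartment score below 0, 24% rose and 42.6% fell. The clusters again parted into groups. In the OR4A16 cluster 35 of 36 bins fell (median difference -0.20), and in the OR4N2 cluster 12 of 13 (median -0.13). In the OR6X1 cluster 17 of 23 rose and 2 fell, in the OR1D2 cluster 8 of 10 rose (median 0.23) and in the OR1J1 cluster 3 of 10 rose. Neighbouring bins share most of the contacts that their windows take in, so bins of a cluster are not independent counts. The OR4N2, OR1D2 and OR1J1 clusters are no longer than the window of 520 kb.

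The OR52B4 cluster was mixed, with 21 bins that rose and 14 that fell of 92, the OR2B11 cluster had 1 and 8 of 29, and in the OR10T2 cluster limma called 0 of 18 bins, where differences ran from -0.04 to 0.04. Leaving out 1 library at a time gave 91 to 126 called cluster bins. The largest rise was at OR3A2 in the OR1D2 cluster, with log2 insulation of 0.31, 0.28 and 0.24 in growing against 0.63 and 0.55 in RIS libraries (difference 0.31, SE 0.04, limma adjusted p = 0.000206). The largest fall was in a bin of GABBR1 at the right edge of the OR2W1 cluster (-0.98, -0.97 and -0.83 against -1.56 and -1.48; difference -0.59, SE 0.05, limma adjusted p = 7.16e-05), so that the border there, between the receptors and the MOG side, was deeper in both RIS libraries than in every growing library. A similar deepening marked the left edge of the OR6X1 cluster, in the bin of ZNF202 and OR6X1 (-1.11, -1.07 and -0.97 against -1.44 and -1.46, difference -0.40).

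Of the 42 listed genes of other families, 10 overlapped a bin whose insulation rose and 8 a bin where it fell, where 26% of all bins rose and 27.8% fell. All 4 neighbours of the OR2W1 cluster lay in bins whose insulation fell, as did TTC5, PARP2 and TEP1 beside the OR4N2 cluster. SPATA22 and ASPA in the OR1D2 cluster overlapped bins that rose, as did 2 of 5 CD1, 2 of 4 HIN, 2 of 5 beta-globin and 1 of 6 TRIM genes. Among these, HBG2, HBE1 and TRIM5 are annotated over 8, 7 and 7 bins, some of which hold receptor genes. The bin of HBB, HBD and HBG1 was not called. None of the 5 genes of the gene-dense part of the OR52B4 cluster overlapped a called bin. Borders are local minima of insulation. The clusters held 19 in growing and 17 in RIS cells, and 18 of the 19 (94.7%) had a RIS border within 1 bin, as did 91.9% of the 5326 growing borders of the genome. The exception was at OR56A3 and OR56A5 in the OR52B4 cluster, where insulation rose by 0.16.

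Each bin's contacts can also be divided by reach: up to 2 Mb, further along the chromosome (far cis) and other chromosomes (trans). The trans share rose in 198 and fell in 0 of 254 cluster bins by limma at an adjusted p under 0.05, where 66.3% of all 69621 bins rose and 1.33% fell, and 82.5% of 34188 bins in B rose. The clusters thus took part in a genome-wide rise. The OR2B11 cluster went furthest, with a median share of 8.26%, 8.66% and 7.66% in growing and 13.4% and 13.9% in RIS libraries, where all 33 bins rose. Every bin also rose in the OR4A16, OR6X1, OR10T2, OR4N2 and OR2W1 clusters, 9 of 10 in the OR1J1 cluster and 47 of 92 in the OR52B4 cluster.

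The OR1D2 cluster was the exception among the 9: limma called 0 of its 10 bins. Its trans share was already high, at 23.4%, 23.1% and 21.8% in growing and 24.2% and 22.5% in RIS libraries, and the groups overlapped. Bins with a coding OR gene rose in 147 of 174 cases and the clusters' other bins in 51 of 80; outside the clusters, 77 of 129 bins with a coding OR gene rose and 8 fell. After each library was centred on its median over all bins, 58 cluster bins were called higher and 34 lower, where 23.1% of all bins were called higher and 19.7% lower.

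The share up to 2 Mb fell in 107 and rose in 4 of the 254 bins, where 34% of all bins fell and 8.7% rose and, of the bins in B, 56.2% fell and 10.1% rose. The bins with the largest called differences in this share all had the same SE, 0.0336. Calls here thus follow the size of a difference, not a bin's own spread, and were not counted without single libraries. It fell in all 40 bins of the OR4A16 cluster (medians 56.1%, 54.1% and 56.4% against 46.0% and 48.5%), in all 13 of the OR4N2 cluster (58.3%, 53.5% and 57.1% against 49.1% and 46.1%) and in 26 of 33 of the OR2B11 cluster. In the OR1D2 cluster it rose in 3 of 10 bins (60.8%, 61.2% and 62.4% against 63.6% and 65.6%). The far cis share rose in 1 and fell in 15 bins, where 6.03% of all bins rose and 21% fell (in B, 10.2% and 16.1%). Of the 15, 8 lay in the OR1D2 cluster (16.1%, 15.8% and 16.0% against 12.2% and 11.9%) and 5 in the OR6X1 cluster. That count moved with single libraries: it was 15, 6 and 9 in all without growing replicate 1, 2 or 3, and 53 and 21 without RIS replicate 1 or 2. Centring each library gave 68 higher and 17 lower, where 30.2% of all bins were called higher and 22.3% lower.

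**Figure D5:**
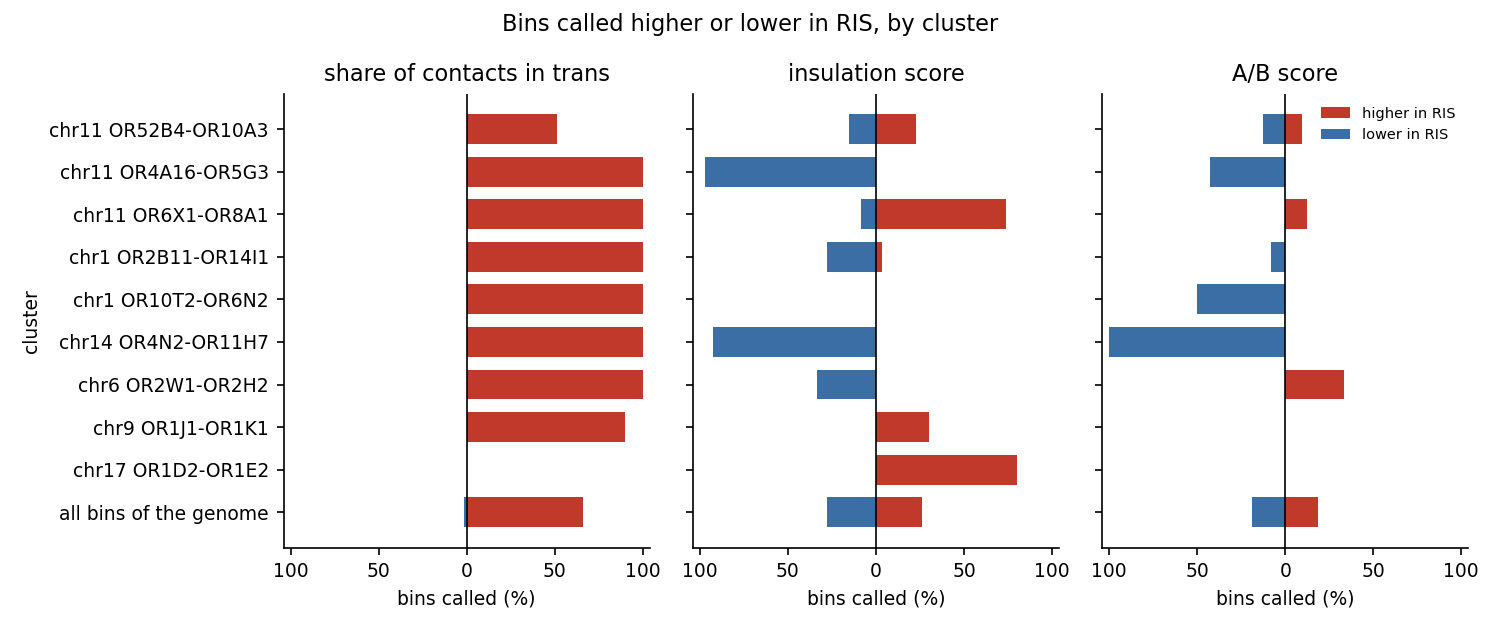
Share of bins of each OR cluster that limma called higher or lower in RIS than in growing cells, in percent, to the left of 0 where lower and to the right where higher, for trans share, insulation and compartment (A/B) score, beside the same share over all bins of the genome. Insulation separates the OR4A16–OR5G3 and OR4N2–OR11H7 clusters, where nearly all bins fell, from the OR1D2–OR1E2 and OR6X1–OR8A1 clusters, where most rose, and the trans share rose in all bins of 6 clusters and in none of the OR1D2–OR1E2 cluster. Neighbouring bins share contacts in the insulation window, so their calls are not independent.

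At the finest scale of the Hi-C data, 4459 pairs of 40 kb bins within a cluster were tested among 1959041 pairs up to 2 Mb apart. Limma called 0 cluster pairs, where it called 0% of all pairs higher and 0.000102% lower at an adjusted p under 0.05. At an unadjusted p under 0.05, 381 cluster pairs were higher and 278 lower. The share of all pairs at that limit was not computed, so these counts cannot show an excess in the clusters. Voom called 43 higher and 27 lower, where 0.867% of all pairs rose and 0.416% fell, and 9 and 6 in all without RIS replicate 1 or 2. By voom, 16 of 253 pairs rose in the OR6X1 cluster, 5 of 45 in the OR1D2 cluster and 3 of 105 in the OR2W1 cluster, with none that fell, and 4 of 78 fell in the OR4N2 cluster with none that rose.

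In the OR52B4 cluster 18 of 2472 pairs rose and 20 fell by voom. Of the 18, 3 had a growing mean below the minimum of 5 and were tested because of their RIS values; no call in another cluster was of this kind. The rise with the largest difference joined the bin of OR51F2 and OR51S1 to that of OR56B4, 1280 kb away, with 1, 9 and 10 contacts in growing against 12 and 14 in RIS libraries (difference 1.77). The fall with the largest difference joined OR2AG1 and OR6A2 to SYT9 and OLFML1 (30, 43 and 52 against 6 and 17 contacts, difference -1.36), and another joined OR52A5 to OR52B6 and TRIM6 (58, 62 and 62 against 20 and 24 contacts, difference -0.97). In these last pairs every RIS library had fewer contacts than every growing library.

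The capture libraries gave a separate look at 990 kb of the OR52B4 cluster (chr11:4780001-5770000) in bins of 10 kb, of which 95 of 99 had a value in all 4 libraries. The stretch holds 30 coding OR genes and the beta-globin genes, whose adult members encode a chain of haemoglobin. Contact between receptor gene bins, relative to the distance expectation over the captured regions, was 1.13 and 1.13 in growing against 1.21 and 1.24 in RIS libraries. The RIS libraries were higher (difference 0.12), but with 2 against 2 libraries the exact permutation test cannot give a two-sided p below 0.33. Contact over all bins of the stretch was higher too (difference 0.09), as were contacts of receptor bins with TRIM gene bins (0.07) and with bins of neither family (0.07). Contact of receptor bins with globin bins was 0.819 and 0.798 against 0.894 and 0.876 (difference 0.13), and contact among globin bins was 1.34 and 1.35 against 1.24 and 1.27 (difference -0.10). These differences changed with the processing. On the contacts recovered before balancing, they were -0.046 between receptor bins, -0.17 between receptor and globin bins, -0.25 among globin bins and -0.06 over all bins. With the expected contact taken from the stretch alone, they were 0.04 between receptor bins, 0.09 with globin bins, -0.018 among globin bins and -0.06 between receptor and TRIM gene bins.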

How the data were processed

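The deposited Hi-C and capture Hi-C matrices hold signal: contact values per pair of bins (40 kb and 10 kb), which the authors made by quality control with FastQC, alignment to hg19 and filtering with HiC-Pro, and ICE balancing of each library, so that every bin of a library has about the same sum. Balancing takes out differences in coverage between bins and with them any true difference in a bin's total.

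From these values, whole contacts per bin pair were recovered by undoing the balancing; 100% of Hi-C values came out whole, and 99.93% to 99.995% of capture values, to within 0.05 contacts or 1% of the value, whichever was larger. The capture libraries held 69114491 to 171726939 contacts. Main values are the balanced ones. Expected contact is the library's genome mean at the same distance, and bins without a value in every library were left out, as were Y and unplaced sequence. The 9 intervals, and all lists and tests, were chosen with earlier results of these data known. Single values were compared over libraries with a two-sided exact permutation test (3 growing against 2 RIS); tables of bins or bin pairs with limma and Benjamini-Hochberg adjustment over all features, at 5%. Pair tables used log2 (value + 0.5) after loess on abundance (span 0.3), a minimum mean value of 5 (40 kb pairs, trans tiles) or 10 (200 kb pairs), and a prior variance that follows the mean, because the fit without it called none of the changes in simulated data, on which the fits were tested. Compartment scores used 120 kb bins, insulation a 520 kb window; borders are minima with a prominence of 0.1, and TADbit was not used. Named genes are the first and last coding receptor gene of each cluster, listed neighbours (beta-globin, TRIM, CD1, HIN and genes of each flank) and the 3 bins or pairs with the largest called difference in each direction and measure. Alternatives left out each library, blocked on replicate number, and changed bin, flank, expected contact, minimum, pseudocount, loess, centring, contacts recovered before balancing and libraries with few or many duplicates. Not all bins and pairs that this rule names are described, and 1 sequence is not reported here. Bins hold no strand or allele, so homologous chromosomes are mixed, and near-identical receptor genes can lose uniquely mapped reads. Tools were R 4.3.3 with limma 3.58.1 and, under Python 3.11.15, matplotlib 3.10.9, numba 0.67.0, pandas 2.3.3, scipy 1.17.1 and numpy 2.4.6.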

Additional observations from a re-analysis of the deposited data

How the results depend on the processing

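Values here are log2 differences (RIS minus growing) or numbers of called bins or pairs; the alternatives on centring, the mean-variance trend, voom without single libraries and trans pairs at 0 were chosen after seeing the data, and the causes of the changes were not tested. Of 515 alternatives on 40 values of single clusters, flanks and cis pairs, 499 kept the direction. Many of these only left out or regrouped libraries, which cannot turn a difference whose groups do not overlap. The count is therefore no measure of robustness. Libraries with few duplicates (RIS replicate 1 against growing replicates 1 and 2) gave a mean of 0.093 inside the clusters and 0.10 over cis pairs. Those with many (RIS replicate 2 against growing replicate 3) gave 0.13 and 0.23, and -0.11 with the flanks. The latter sets 1 library against 1, and growing replicate 3 also carried the MSCV vector. Duplicates therefore cannot be told apart from the vector or from the spread of single libraries. Taking the median over cis pairs within each library gave -0.31. Contact with both flanks turned for the OR52B4 cluster (-0.018 to 0.040 without single libraries, lowest without RIS replicate 1; -0.030 with many duplicates), the OR2W1 cluster (-0.012 with OR gene bins alone, -0.060 with 400 kb flanks) and the OR1J1 cluster (-0.0052 with a coverage minimum, -0.012 with 400 kb flanks, -0.017 on recovered contacts, -0.0046 to 0.044 without single libraries, lowest without RIS replicate 1). Single sides turned for the OR52B4 cluster (left, 0.15, 400 kb), the OR6X1 cluster (left, 0.0052, recovered contacts), the OR1D2 cluster (right, 0.023, 400 kb) and the OR2B11 cluster (right, -0.011 with OR gene bins, -0.10 with the coverage minimum, -0.030 with the expected contact of the chromosome, -0.055 on recovered contacts), and the pair of the OR52B4 and OR6X1 clusters was 0.25 with the expected contact of the chromosome. Capture contacts were -0.046 (receptor bins) and -0.17 (receptor with globin bins) on recovered contacts. Centring gave 60 compartment bins in place of 25, 92 trans share bins in place of 198 and 85 far cis bins in place of 16. Voom gave 70 pairs at 40 kb in place of 0. The 15 pairs at 200 kb became 6 without the variance trend, 5 of 36 with the minimum doubled and 9 without loess. Without single libraries, counts ran from 1 to 29 (compartment), 6 to 53 (far cis), 0 to 20 (40 kb pairs) and 2 to 11 (200 kb pairs). Replicate numbers did not establish pairs: deviations of same-numbered libraries correlated between -0.19 and 0.20. With replicate number as a block, 5 far cis bins and 9 pairs at 200 kb were called, and the means were 0.11 inside the clusters, -0.08 with flanks, 0.11 in cis and 0.31 in trans. Depth left 0 to 44 contacts per library in a trans pair of clusters.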
